A study of Arabidopsis thaliana with 3 samples.

Results

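The sites described here are the single-base substitutions of chromosomes 1, 2, 3 and 5 of the plant Arabidopsis thaliana whose change, read from the allele of the wild-type library to the other allele, was neither G-to-A nor C-to-T (together, G:C to A:T). They were taken from the table of variant sites by position and alleles, without use of the pools' read counts, and numbered 252 of the 1990 sites of the table, of which chromosome 1 held 43, chromosome 2 held 46, chromosome 3 held 83 and chromosome 5 held 80. The series mapped the thm1 mutation by bulked segregant sequencing: progeny are sorted by phenotype, and the DNA of each sorted pool is read together. Leaf DNA of 3 libraries was sequenced: the wild type WTa (genotype WT), a pool of thm1_like plants (genotype thm1 mutant) and a pool of WTa_like plants (genotype WT), with 1 library each and hence no replicates. The sources used here give neither the mutagen, the cross, the age of the plants nor how many went into a pool. Positions are those of the TAIR10 build.

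In mapping by sequencing, the marker sites are usually the changes that the mutagen made. Ethyl methanesulfonate, a mutagen widely used in Arabidopsis, alkylates guanine and so gives mostly G-to-A changes, or C-to-T when read on the opposite strand. A transition exchanges a purine for a purine or a pyrimidine for a pyrimidine, and a transversion exchanges between these groups.

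The SNP-index of a pool at a site is the fraction of its reads without the WTa allele. Delta subtracts the WTa_like index from the thm1_like index. At the 252 sites the thm1_like pool had a median depth of 25 reads (range 7 to 90, 7342 reads in all), the WTa_like pool 27 reads (7 to 94, 7443 reads) and WTa 13 reads (2 to 47). At the thm1_like median depth, an index of 9 of 25 reads has an exact (Clopper-Pearson) 95% interval of 0.180 to 0.575. A single index therefore carries a wide counting error, and all intervals here cover counting error only. Over all 3 classes of sites on these chromosomes, the pools had median depths of 24 (thm1_like) and 23 reads (WTa_like). No listed site had an index below 0.296 in both pools, so sites at which both pools are low are not in the table.

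Among the 10 kinds of change that the rule leaves, most sites had A or T as the WTa base. The WTa base was A or T at 189 sites (75%, exact 95% interval 69.2% to 80.2%) and G or C at 63, a count already lowered by the removal of G:C to A:T changes. No genome sequence was at hand to give the share expected from base composition. The 75% is therefore not read as a preference for A and T. A-to-G was the most frequent kind with 52 sites, followed by T-to-C with 44, A-to-T with 32, G-to-T with 25, A-to-C and T-to-A with 22 each, T-to-G with 17, C-to-A and G-to-C with 13 each and C-to-G with 12. Read without regard to strand, A:T to G:C changes, which are the transitions that remain, made up 96 sites (38.1%, interval 32.1% to 44.4%). A:T to T:A made up 54, A:T to C:G 39, G:C to T:A 38 and G:C to C:G 25 sites. Transitions held 63 of the 170 clustered sites defined next (37.1%, interval 29.8% to 44.8%) and 33 of the 82 single sites (40.2%, interval 29.6% to 51.7%), and these intervals overlap.

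Most of the sites lay close to another listed site. A site was called clustered where another listed site of any class lay within 200 bp, and single otherwise; 170 of the 252 sites were clustered (67.5%, exact 95% interval 61.3% to 73.2%). On the same chromosomes, 83 of 1189 G:C to A:T sites were clustered (6.98%, interval 5.6% to 8.58%), as were 19 of 248 indels (7.66%, interval 4.68% to 11.7%). The median distance to the nearest listed site was 21 bp for the other substitutions and 18806 bp for G:C to A:T sites. At 22 of the 252 the nearest listed site was the adjoining base, and at 88 it lay within 10 bp. The widest distance inside the 200 bp limit was 178 bp and the narrowest beyond it was 233 bp. Chromosome 1 had the lowest clustered share, 53.5%, and chromosomes 2, 3 and 5 had 71.7%, 69.9% and 70%. These intervals treat sites as independent, which neighbouring sites are not, and no test was made over sites.

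**Figure D1:**
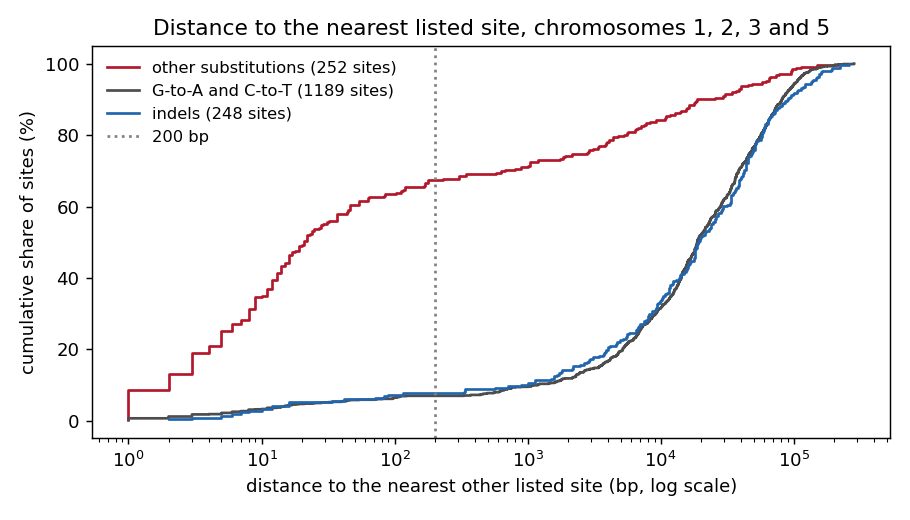
Distance from each site to the nearest other listed site in bp (log scale) against the cumulative share of sites in percent, for the 3 classes of chromosomes 1, 2, 3 and 5; the dotted line marks 200 bp. The curve of the other substitutions has reached 67.5% at 200 bp, where those of the other classes are at 6.98% and 7.66%.

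The 170 clustered sites formed 63 clusters, and with the 82 single sites they make 145 separate locations. A cluster spanned a median of 48 bp (2 to 357 bp) and held a median of 3 listed sites (2 to 16). Of the 63 clusters, 22 held other substitutions alone and 38 also held a G:C to A:T site. In all, 61 G:C to A:T sites and 13 indels shared a cluster with them. At least 2 other substitutions were found in 49 clusters, and in 44 of these they were of more than 1 strand-symmetric type.

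The sites were concentrated around 1 stretch of each chromosome, rich in pseudogenes. Pericentromeric DNA of Arabidopsis is known to be rich in transposable elements and poor in active genes. As a landmark, chosen after the positions were seen but not computed from them, the 1 Mb bin with the most annotated pseudogenes was taken on each chromosome. It was 15 to 16 Mb on chromosome 1 (134 pseudogenes, against a median of 16 per bin), 4 to 5 Mb on chromosome 2 (188 against 17.5), 12 to 13 Mb on chromosome 3 (195 against 14.5) and 12 to 13 Mb on chromosome 5 (203 against 10). Within 2 Mb of the middle of this bin lay 191 of the 252 sites (75.8%, exact interval 70.0% to 80.9%), in windows that cover 15.9% of the sequence up to the last gene of each chromosome. Of the G:C to A:T sites 257 of 1189 lay there (21.6%, interval 19.3% to 24.1%), and of the indels 47 of 248 (19.0%, interval 14.3% to 24.4%).

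By chromosome, 36 of 43 sites lay in the window on chromosome 1, 38 of 46 on chromosome 2, 56 of 83 on chromosome 3 and 61 of 80 on chromosome 5. The densest 1 Mb bin was the landmark bin on chromosome 5, with 29 sites, and the bin next to it on chromosome 1 (14 to 15 Mb, 18 sites), chromosome 2 (3 to 4 Mb, 11 sites) and chromosome 3 (13 to 14 Mb, 29 sites). The middle 50% of sites spanned 13.6 to 14.4 Mb on chromosome 3, 14.5 to 15.2 Mb on chromosome 1, 3.77 to 5.54 Mb on chromosome 2 and 11.8 to 12.6 Mb on chromosome 5. Clustering also differed by class inside the windows: 144 of the 191 other substitutions (75.4%) and 70 of the 257 G:C to A:T sites (27.2%) were clustered. Outside them, 26 of 61 other substitutions were clustered (42.6%, interval 30.0% to 55.9%).

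**Figure D2:**
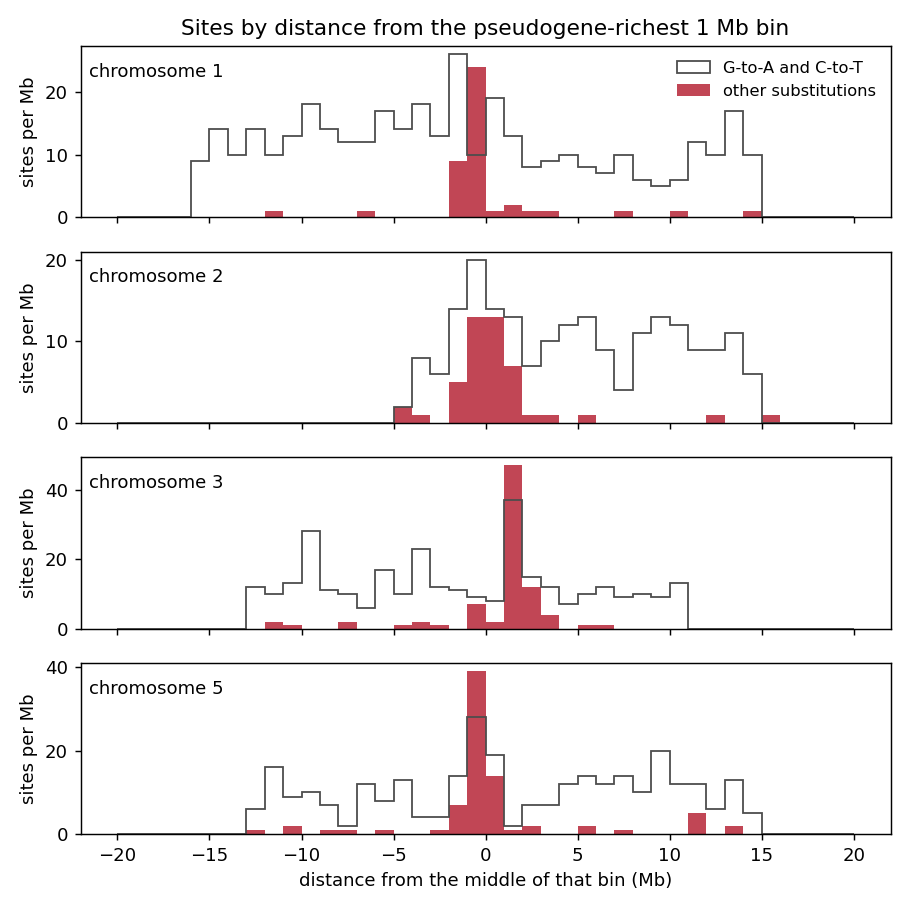
Sites per Mb (vertical axis) against the distance in Mb from the middle of the pseudogene-richest 1 Mb bin, by chromosome, for the other substitutions (filled) and the G:C to A:T sites (outline). The filled bars gather within 2 Mb of the landmark (191 of 252 sites), whereas 257 of the 1189 outlined sites lie there.

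Pseudogenes and stretches outside annotated genes held most of the sites. Of the 252, 28 lay within protein-coding bounds (11.1%, exact interval 7.51% to 15.7%), 96 within the bounds of a pseudogene (38.1%, interval 32.1% to 44.4%), 1 within another gene and 127 outside gene bounds (50.4%). Protein-coding bounds cover 54.3% and pseudogene bounds 8.63% of these 4 chromosomes. Within 2 Mb of the landmarks they cover 13.8% and 33.2%, and there 7 (3.66%) and 81 (42.4%) of the 191 sites lay in them. Of the G:C to A:T sites of the 4 chromosomes, 54.1% lay in protein-coding and 11.9% in pseudogene bounds. Of the 257 G:C to A:T sites within 2 Mb of the landmarks, 10.5% lay in protein-coding and 40.5% in pseudogene bounds. Inside these windows the pseudogene share was thus similar in both classes. With 1 site per cluster, 16.6% of the other substitutions lay in protein-coding and 29.7% in pseudogene bounds.

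The 96 pseudogene sites fell in 42 pseudogenes, of which 20 held at least 2 and together 74. AT3G42236 on chromosome 3 held the most, with 10, followed by AT5G33388 on chromosome 5 with 8, AT2G12860 on chromosome 2 with 6 and AT5G59640 on chromosome 5 with 5. AT2G10833, AT2G11700 and AT2G14950 on chromosome 2 and AT3G42258 on chromosome 3 held 4 each. The gene table does not mark repeats and gives no product descriptions, so transposable elements were not counted as such. A search for 10 words for gene families and repeats, among them transposon, kinase and F-box, was thus limited to symbols and synonyms. It matched none of the 69 annotated loci hit, overlapping ones included. Most of these loci have only a locus tag as symbol, so the search cannot show that such families are absent.

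The pools had nearly the same level at these sites. The mean index was 0.377 in the thm1_like pool (SD 0.156 over 252 sites) and 0.373 in the WTa_like pool (SD 0.155). Over summed reads, 36.7% of thm1_like reads (2698 of 7342, exact 95% interval 35.6% to 37.9%) and 38.3% of WTa_like reads (2853 of 7443, interval 37.2% to 39.4%) lacked the WTa allele. The overlap of these intervals does not show that the levels are equal. They also count reads of neighbouring sites as independent, which they are not. Both pools lay between 0.2 and 0.7 at 191 sites (75.8%), against 76.5% of G:C to A:T sites and 40.3% of indels. An index of at least 0.9 was found at 1 site in the thm1_like pool and at 2 in the WTa_like pool. Mean delta was 0.00415 (SD 0.198), with 115 sites higher in the thm1_like pool, 135 lower and 2 equal. The sign of this small mean is not settled, since the difference over summed reads was -0.0158 and the median delta was -0.0169.

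**Figure D3:**
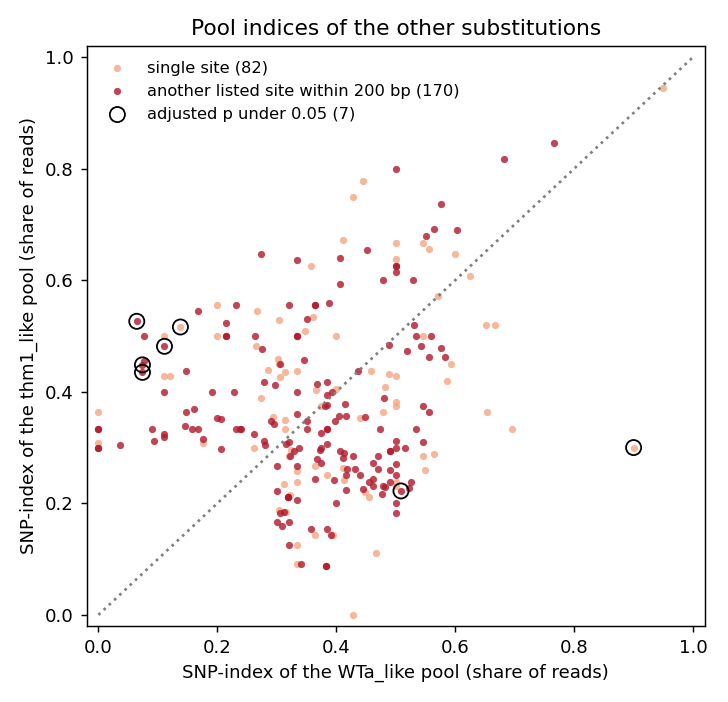
SNP-index of the WTa_like pool (horizontal, share of reads) against that of the thm1_like pool (vertical) for the 252 sites, clustered and single, with the line of equality; circles mark the 7 sites past an adjusted p of 0.05. The points lie on both sides of the line (115 above, 135 below), and the empty lower left corner reflects that no listed site had an index below 0.296 in both pools.

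Mean delta by chromosome was -0.0212 on chromosome 1 (SD 0.207, 43 sites), 0.0115 on chromosome 2 (SD 0.194, 46 sites), 0.0219 on chromosome 3 (SD 0.194, 83 sites) and -0.00487 on chromosome 5 (SD 0.203, 80 sites). No test was made between chromosomes. The highest index of a pool by chromosome was on chromosome 3, with means of 0.421 in the thm1_like and 0.399 in the WTa_like pool, and the lowest thm1_like mean was on chromosome 1 with 0.336. Clustered sites had mean indices of 0.367 and 0.359 in the thm1_like and WTa_like pools and single sites 0.398 and 0.404. Depth was higher at clustered sites, with medians of 26 and 28 reads against 22 and 24 at single sites, and its part in the indices was not tested.

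By type of change, mean delta was -0.02 for A:T to G:C (SD 0.188, 96 sites), 0.00315 for A:T to T:A (SD 0.189, 54 sites), 0.0405 for A:T to C:G (SD 0.210, 39 sites) and -0.0339 for G:C to T:A (SD 0.209, 38 sites). In the same order, median delta was -0.0427, -0.0312, -0.00556 and -0.0692. For A:T to T:A and A:T to C:G the median and the mean thus differed in sign. The 25 G:C to C:G sites, at 24 locations, had the highest mean, 0.100 (SD 0.199), with indices of 0.419 in the thm1_like and 0.319 in the WTa_like pool, and a positive delta at 19 of the 25. Within this type, mean delta was 0.168 over 12 C-to-G sites (SD 0.170) and 0.0382 over 13 G-to-C sites (SD 0.210). These are the same change read on opposite strands, so the gap is not a contrast between types. All these means rest on few sites, and no test was made between types.

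Each site was also tested by itself, with Fisher's exact test (two-sided) on the read counts, Benjamini-Hochberg adjusted over the 1817 sites of the whole table with at least 10 reads in both pools; it compares the 2 libraries, not the conditions. Of the 237 other substitutions tested, 7 were called at an adjusted p of 0.05 (2.95%), 5 with a positive and 2 with a negative delta. The listing of sites rests on the same counts, since no listed site had an index below 0.296 in both pools. Of the 252 sites, 113 reached about this level in both pools, 59 in the thm1_like pool alone and 80 in the WTa_like pool alone. The p-values take no account of this selection. Over all tested sites 12.6% passed, 8.20% higher and 4.40% lower. At an unadjusted p of 0.05 the counts were 33 of 237 (13.9%) and 27.7% of all sites. The share among these sites was thus below the background of the table, which includes chromosome 4. On the same 4 chromosomes, 97 of 1096 G:C to A:T sites (8.85%) and 35 of 216 indels (16.2%) passed. The 7 sites lay at 4 locations, and sites of a cluster share reads, so they are not 7 separate differences. Taking 1 site per cluster, the first by position, left 3. The location lost is a cluster on chromosome 3 whose called site is not its first.

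**Figure D4:**
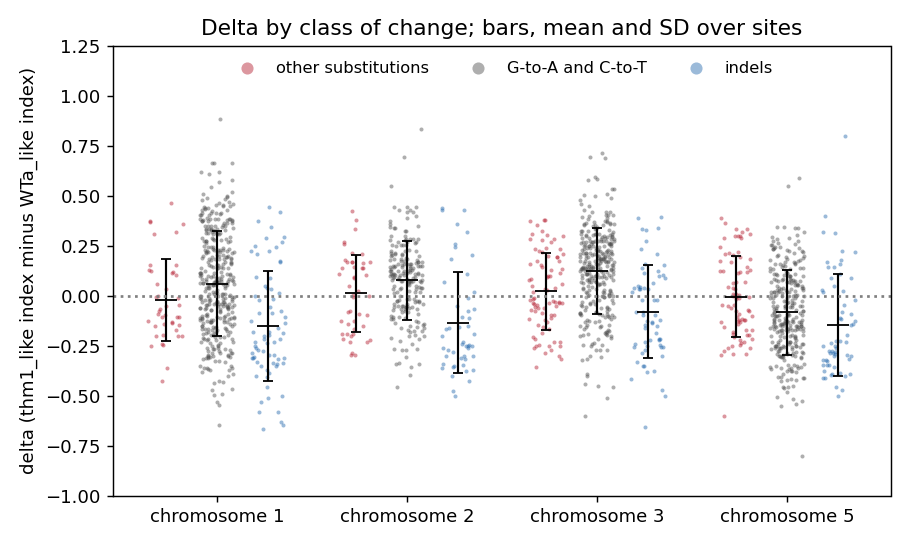
Delta (thm1_like index minus WTa_like index) of each site, by chromosome and class of change, with the mean and SD over sites in black. The other substitutions have means between -0.0212 and 0.0219, within -0.60 and 0.462, and the clouds of all 3 classes overlap on each chromosome.

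Spread was also narrower in the other substitutions. A delta beyond 0.3 in either direction was found at 28 of the 252 sites (11.1%), against 258 of 1189 G:C to A:T sites (21.7%) and 88 of 248 indels (35.5%). Clustering differs with class. Among clustered sites the share was 8.82% for other substitutions and 9.64% for G:C to A:T sites, and among single sites 15.9% and 22.6%. The part of clustering in the spread was not tested. Mean delta was 0.0443 (SD 0.239) over the G:C to A:T sites and -0.129 (SD 0.256) over the indels of these chromosomes. Depth differs with class, with WTa_like medians of 27, 23 and 19 reads for other substitutions, G:C to A:T sites and indels, and its part in the spread was not tested.

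The largest group of calls was 1 cluster on chromosome 1, outside gene bounds and 54072 bp from the protein-coding gene AT1G38790. Changes are written as the WTa base, the chromosome position and the other base. C14489130G was carried by 13 of 29 thm1_like reads and 2 of 27 WTa_like reads (delta 0.374, exact adjusted p = 0.0249). A14489145C was carried by 13 of 27 and 3 of 27 reads (delta 0.370, exact adjusted p = 0.0498). T14489183C was carried by 10 of 23 and 2 of 27 reads (delta 0.361, exact adjusted p = 0.0497), and T14489205G by 10 of 19 and 2 of 31 reads (delta 0.462, exact adjusted p = 0.00881), the highest delta of these sites on chromosome 1. All 4, within 76 bp, had thm1_like indices of 0.435 to 0.526 and WTa_like indices of 0.0645 to 0.111. The calls at A14489145C and T14489183C stood just under the threshold and ended with adjustment over substitutions alone (exact adjusted p = 0.0526 at each) and without the minimum of reads (0.0518 and 0.0517). A neighbouring cluster of the same chromosome, from 14508755 to 14508845, leaned the opposite way: its 6 sites had thm1_like indices of 0.143 to 0.30 and WTa_like indices of 0.318 to 0.50, and none passed.

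Chromosome 3 held 2 of the calls. T13189275A, a single site outside gene bounds and 17748 bp from AT3G32200, was carried by 16 of 31 thm1_like reads (index 0.516, exact interval 0.331 to 0.698) and 4 of 29 WTa_like reads (0.138, interval 0.0389 to 0.317), a delta of 0.378 (exact adjusted p = 0.0275). G13822907C was lower in the thm1_like pool, at 10 of 45 reads, than in the WTa_like pool, at 29 of 57 (delta -0.287, exact adjusted p = 0.0375). It belongs to a cluster of 10 listed sites whose other 7 substitutions did not pass, although all 8 were lower in the thm1_like pool, with thm1_like indices of 0.222 to 0.30 and WTa_like indices of 0.406 to 0.515.

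On chromosome 5 the call was G277365T in SCAR4 (AT5G01730), a member of the SCAR/WAVE family that activates the ARP2/3 complex in actin nucleation. It was carried by 3 of 10 thm1_like reads (index 0.30, exact interval 0.0667 to 0.652) and 18 of 20 WTa_like reads (0.90, interval 0.683 to 0.988), the lowest delta of the 252 sites at -0.60 (exact adjusted p = 0.0217). WTa had 8 reads there and carried the alternative allele, so the base counted in the pools is that of the reference genome. Requiring 20 reads in both pools removes this site, whose thm1_like depth is 10, and T14489205G on chromosome 1, whose thm1_like depth is 19. With that minimum 6 sites passed, of which 5 were among the 7 calls, so the set of calls also gained a site. Leaving out sites above 50 reads removes G13822907C on chromosome 3, whose WTa_like depth is 57.

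The other sites with the highest or lowest delta of a chromosome did not pass the test or had too few reads for it, and except on chromosome 2 for the lowest delta they had at most 15 reads in either pool. On chromosome 1 the lowest was A14487377G in the pseudogene AT1G38440, with 0 of 7 against 3 of 7 reads (delta -0.429), and 0 of 7 reads leaves room for a share of up to 42.9%. On chromosome 2 the highest was T4695555C in the pseudogene AT2G11700, with 5 of 10 thm1_like and 1 of 13 WTa_like reads (delta 0.423, exact adjusted p = 0.185), and the lowest were the adjoining T6448981C and A6448982C in AT2G14950, each with 2 of 23 and 13 of 34 reads (delta -0.295, exact adjusted p = 0.0887 at each). On chromosome 3 they were T9328429A outside gene bounds, with 6 of 11 against 2 of 12 reads and only 3 WTa reads (delta 0.379, exact adjusted p = 0.258), and C15255618A in the pseudogene AT3G43304, with 1 of 9 against 7 of 15 reads (delta -0.356, not tested). On chromosome 5 the highest was C11141438G in the pseudogene AT5G29075, with 5 of 10 against 1 of 9 reads (delta 0.389, not tested).

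Within clusters, neighbouring sites had similar values. Of 107 pairs of neighbouring other substitutions in a cluster, a median of 16 bp apart, 93 had a delta of the same sign and 7 had identical counts in both pools. Their deltas differed by a median of 0.0447, against a median absolute delta of 0.159 over clustered sites. Of the 49 clusters with at least 2 of these sites, 19 had all of them higher in the thm1_like pool, 19 all lower, and 11 had both directions. Reads and fragments span several sites of a cluster, so neighbours share counts.

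The largest cluster lay in the pseudogene AT3G42236 on chromosome 3, from 14392019 to 14392205, with 16 listed sites. Over its 10 other substitutions the thm1_like index averaged 0.491 (SD 0.0867) and the WTa_like index 0.258 (SD 0.0692). Delta was positive at all 10 and none passed the test, at depths of 12 to 27 reads. The cluster on chromosome 3 from 13822882 to 13823019, which holds G13822907C, ran the other way, with means of 0.260 (SD 0.0285) and 0.483 (SD 0.0341) over 8 substitutions and 10 of 10 listed sites lower. The cluster in AT2G12860 on chromosome 2, from 5282385 to 5282541, had 11 listed sites, all higher in the thm1_like pool, and means of 0.358 (SD 0.0601) and 0.201 (SD 0.0872) over 6 substitutions. The 6-site cluster of chromosome 1 described above had means of 0.212 (SD 0.0503) and 0.374 (SD 0.0724).

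The cluster in AT5G33388 on chromosome 5, from 12641598 to 12641750, changed direction within 153 bp. At T12641598A, 9 of 39 thm1_like and 12 of 26 WTa_like reads carried the other allele (delta -0.231). At T12641692C the shares were 12 of 30 and 11 of 28 (delta 0.00714), and at A12641750G they were 7 of 16 and 4 of 27 (delta 0.289). None of its 8 substitutions passed the test, so neither direction exceeds counting error at a single site.

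**Figure D5:**
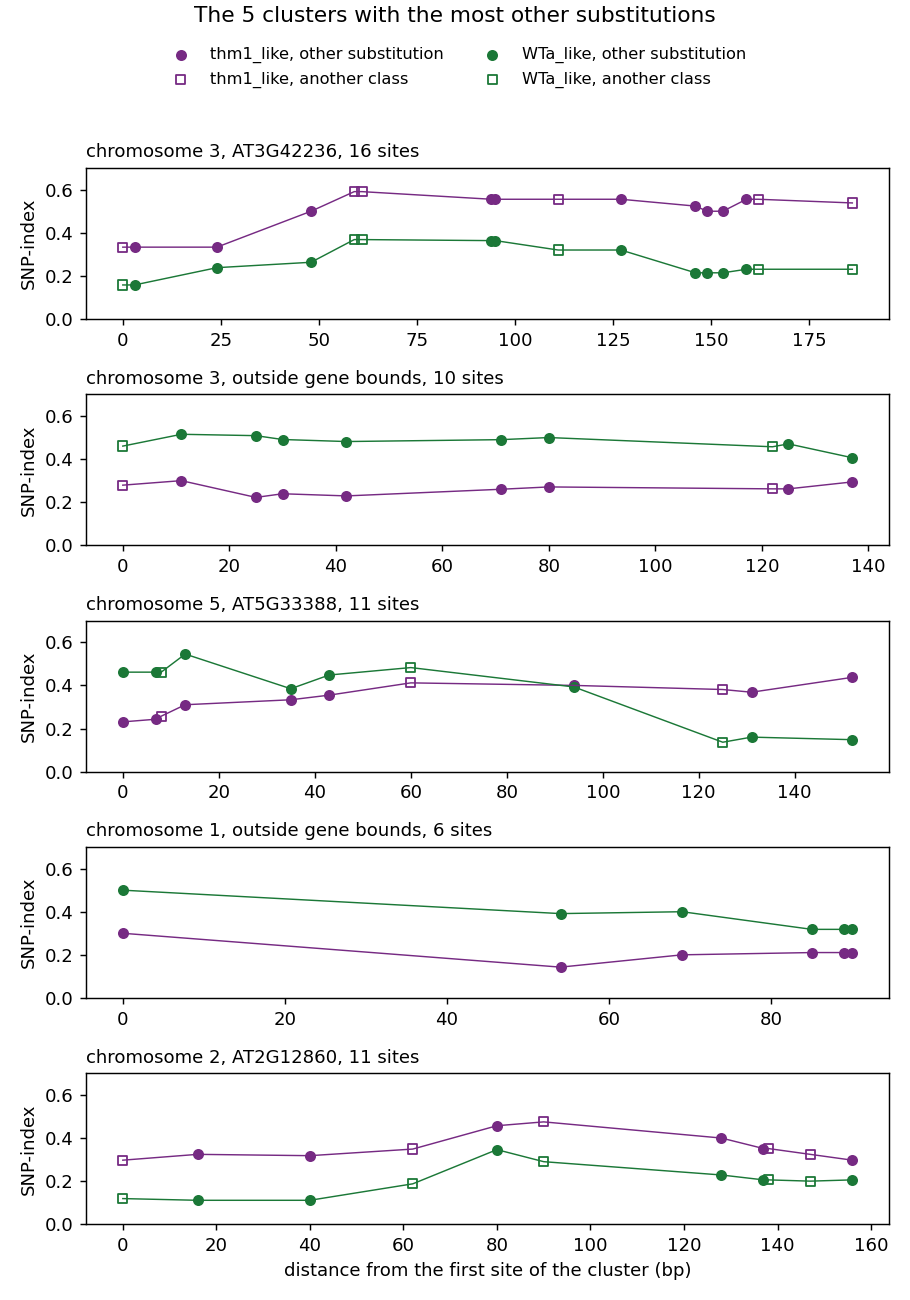
SNP-index of the thm1_like (purple) and WTa_like (green) pools against the distance in bp from the first listed site, for the 5 clusters with the most other substitutions; filled points are other substitutions and open squares are sites of the other classes. The pools keep their order along 4 clusters and cross in AT5G33388.

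Away from the landmarks, 10 clusters held 26 of the sites. The cluster with the most was in the pseudogene AT5G59640 on chromosome 5, from 24029451 to 24029522, where 5 substitutions had nearly equal means of 0.395 and 0.388 in the thm1_like and WTa_like pools. Its depth was high, 60 to 66 thm1_like reads and 37 to 42 WTa_like reads. In the protein-coding gene AT5G64540 the adjoining changes A25799443C and A25799444T were each carried by 4 of 12 thm1_like reads and 0 of 24 WTa_like reads (delta 0.333, exact adjusted p = 0.0618), and 0 of 24 reads leaves room for a share of up to 12.5%. How the listing of sites bears on counts of 0 is given below. In AT3G15590 on chromosome 3, C5277981G and T5278018C had a mean delta of 0.181, and in AT5G06630 on chromosome 5, G2036808T was lower and T2036928A higher in the thm1_like pool (deltas of -0.120 and 0.0624), and none of these 4 passed the test.

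The 28 sites in protein-coding bounds lay in 24 genes, 4 of which held 2 sites, and 19 of the 28 were single. Their mean index was 0.428 in the thm1_like pool (SD 0.155) and 0.405 in the WTa_like pool (SD 0.204), and SCAR4 held the only call among the 26 tested. PUB26 (AT1G49780), which encodes a plant U-box protein of a family of ubiquitin ligases, had C18429744A in 12 of 28 thm1_like and 3 of 25 WTa_like reads (delta 0.309, exact adjusted p = 0.0927), with 4 WTa reads. MC5 (AT1G79330), a metacaspase gene, had C29840245A in 11 of 31 against 5 of 17 reads (delta 0.0607). THA2 (AT3G04520), a threonine aldolase gene, had A1217780G in 17 of 34 against 6 of 15 reads (delta 0.10). These 3 sites did not pass the test.

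On chromosome 5, RING1A (AT5G44280), a Polycomb group gene, had A17838136G in 31 of 51 against 20 of 32 reads, indices of 0.608 and 0.625. SEC10 (AT5G12370), a subunit of the exocyst that tethers vesicles to the plasma membrane, had A4007257G in 6 of 28 against 10 of 31 reads (delta -0.108). EXT13 (AT5G35190), an extensin of the cell wall, a protein built of repeated motifs, held T13434585A in 26 of 84 against 25 of 78 reads and A13434603T in 18 of 64 against 23 of 56 reads. The first of these had the highest thm1_like depth among the protein-coding sites, 84 reads. AT5G20060 had the highest thm1_like index in protein-coding bounds, with G6779655T in 12 of 16 against 9 of 21 reads (indices 0.75 and 0.429, exact adjusted p = 0.264). Exons were not given in the gene table, so no site was assigned to a codon, an intron or an untranslated region.

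A count of 0 in a pool occurred at 7 sites, in the thm1_like pool at A14487377G and in the WTa_like pool at 6 sites, all on chromosome 5. Beside the pair in AT5G64540, these were C11754764G (4 of 13 against 0 of 16 reads, exact adjusted p = 0.135), T11794215C (4 of 11 against 0 of 14, exact adjusted p = 0.126) and the neighbours A11766118G and A11766121T (3 of 10 thm1_like reads each). They lay between 11754764 and 11794215, outside gene bounds. At 16 reads a count of 0 leaves room for a share of 18.8%, and at 14 reads for 21.4%. No listed site had an index below 0.296 in both pools. A site with a count of 0 is therefore listed only where the other pool reached that level. At all 7 sites, the pair in AT5G64540 included, a gap of at least this size follows from the listing. Such a gap is not read as a difference between the pools.

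WTa carried the alternative allele at 13 of the 252 sites, where the allele counted in the pools is the base of the reference genome, and 12 of the 13 were single. Of the G:C to A:T sites of the same chromosomes, 3 of 1189 were of this kind, and of the indels 51 of 248. The 13 sites had mean indices of 0.462 in the thm1_like pool (SD 0.218) and 0.458 in the WTa_like pool (SD 0.230). They include SCAR4 and the only site near fixation in both pools, T3560186G in the pseudogene AT2G07791 on chromosome 2, where 17 of 18 thm1_like and 19 of 20 WTa_like reads lacked the WTa allele and WTa had 5 reads. WTa had fewer than 5 reads at 9 of the 252 sites, where its allele rests on those reads.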

How the data were processed

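Leaf genomic DNA of 3 libraries was sequenced, per the labels' protocols; per the submitters' processing notes, TAIR10 was the build. The sources used here name no aligner, caller or filter. In the deposited table, which covers all sites, the columns give read counts per site and pool, the SNP-index as a fraction, and delta, a difference score, per the file headers. Sites were classed from the WTa allele; index and delta were recomputed from the counts (largest difference from the deposited fraction 0.005) in Python 3.11.15 with SciPy 1.17.1. Fisher's exact test ran on each site of the table whose pools both reached 10 reads. Its check on simulated data drew independent counts and left out no site low in both pools. That check therefore does not cover reads shared by neighbours or the selection of listed sites. Intervals are exact at 95%, and where a pool had no such read, the limit is 3 counts over its depth. Genes came from the RefSeq table of TAIR10.1, without exons or sequence.

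Members, lists and tests were chosen with earlier results of these data known. Named sites were all called members, the highest and lowest delta per chromosome, the 5 clusters with most members and members at an index of at least 0.9 in both pools; a part on promoter windows could not be applied. Sites named in protein-coding genes and with a count of 0, and the landmark bins, were chosen after values were seen. Alternatives varied read minimums, depth limits, cluster distance, weighting and gene bounds.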

Additional observations from a re-analysis of the deposited data

How the results depend on the processing

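Of 79 values recomputed under 15 alternatives, 66 stayed on their side of the threshold or within their interval or 1.5 times the count. With 1 site per cluster, the first by position, 3 sites passed the test instead of 7. Protein-coding bounds then held 16.6% and pseudogenes 29.7% of sites. Fewer sites enter by construction. Under the other 5 test settings 5 to 7 sites passed. The mean thm1_like index of 0.377 became 0.348 as a median. With at least 20 reads in both pools the WTa_like mean was 0.393 and mean delta -0.0255; delta was -0.0158 over summed reads and -0.0169 as a median, and the cause was not tested. Gene bounds extended by 300 bp left 42.9% of sites outside. Clustered sites numbered 153 to 179 under the 5 other definitions. The adjusted p of A14489145C was 0.0526 over substitutions alone and 0.0518 without a read minimum, and that of T14489183C 0.0526 and 0.0517. Depth limits single sites, and the table holds no site low in both pools. No paired analysis was possible because each group has 1 library.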

Other observations

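The 61 G:C to A:T sites that shared a cluster with other substitutions were most of the 83 clustered sites of that class on chromosomes 1, 2, 3 and 5, and 57 of the 61 lay within 2 Mb of the pseudogene-richest bin. Their mean index was 0.351 in the thm1_like pool (SD 0.140) and 0.338 in the WTa_like pool (SD 0.148), with a mean delta of 0.0127 (SD 0.192). Fisher's exact test called 2 of the 60 tested. G14489135A on chromosome 1 had the same counts as its neighbour C14489130G, 13 of 29 against 2 of 27 reads, and G12110737A of chromosome 5 was seen in 3 of 35 thm1_like and 19 of 55 WTa_like reads (delta -0.260, exact adjusted p = 0.0465). Of the single G:C to A:T sites of these chromosomes, 94 of 1016 tested were called (9.25%), and of the clustered ones 3 of 80 (3.75%), against 12.6% of all tested sites. No test was made of this difference.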
